A study of Mus musculus with 12 samples.

Results

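The 4 libraries described here come from mouse embryonic fibroblasts of 1 genotype and set ethanol, the vehicle of the study's inducing drug, against no treatment. They are 2 of Cre-negative cells given ethanol for 5 days (libraries 9 and 10, by the numbers in their titles) and 2 of the same genotype left untreated (libraries 1 and 2), of 12 libraries in 6 groups in all. The libraries were grouped by their labels. Both they and the 47 gene lists used below were chosen with earlier results of these data known. Of the 47517 genes listed, 17609 had enough counts to be tested. The fibroblasts are C57BL/6 cells taken at E13.5 and made immortal with SV40 large T antigen, a viral protein that binds p53 and the retinoblastoma proteins. Both groups carry floxed alleles of Ssb1 (gene symbol Nabp2) and Ssb2 (Nabp1) and no Cre, so neither gene can be recombined. The Cre-positive cells used for comparison carry CreERT2 and floxed alleles of both genes, and were also given ethanol or left untreated (2 libraries each). The 2 genotypes are called lines below, although the labels do not say how many embryos or lines each stands for. Another 2 Cre-negative libraries are of cells given 4-hydroxytamoxifen (4-OHT) for 5 days. The labels do not say whether untreated cells were kept for the same 5 days, at the same density or with the same changes of medium, so ethanol and time in culture cannot be told apart. Nor do they say if a group's 2 libraries are separate cultures, and the p values rest on library-to-library spread that may be technical.

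Ethanol enters cells freely and is oxidised to acetaldehyde and acetate by alcohol and aldehyde dehydrogenases. Cultured fibroblasts answer changes in lipid supply through the SREBP factors, which drive cholesterol and fatty acid synthesis. They answer amino acid or oxidative stress through ATF4 and NRF2, and viral nucleic acids or interferon through STAT2 and IRF9 among other factors. These pathways are described below in turn, with the cell cycle, the histones and the extracellular matrix.

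Ribosome-depleted total RNA was sequenced, and the deposited gene counts summed to 22470388 and 27813387 in the untreated libraries and 25316562 and 28566937 in the ethanol libraries (20201855 to 36367012 over the series). Levels are given as CPM, counts scaled to a common library total, so they compare a gene between libraries and not different genes with each other. Nabp1 lay at 27.5 and 25.2 CPM untreated and 26.5 and 24.5 with ethanol (log2 -0.05, adjusted p = 0.716) and Nabp2 at 27.1 and 26.99 CPM untreated and 26.2 and 26.4 with ethanol (log2 -0.04, adjusted p = 0.747), so neither passed the test. Of 13 fibroblast markers 11 were tested, 2 were higher (18.2%) and 2 lower (18.2%, range 1 to 3), against 12.5% and 12% of all genes. Their summed level was 5470 and 5463 CPM untreated against 5293 and 5475 with ethanol. The intermediate filament gene Vim was at 3826 and 3780.5 CPM untreated and 3509.7 and 3760.4 with ethanol. Thy1 was at 0 in all 6 Cre-negative libraries, Lum reached at most 4 counts, and Fap was at 0 untreated with 5 counts over both ethanol libraries. Epithelial, haematopoietic, endothelial and skeletal muscle markers were scarce. Summed levels untreated and with ethanol were 6.30 to 7.42 and 6.21 to 6.39 CPM for 12 epithelial markers, 3.84 to 3.88 and 3.68 to 4.58 for 12 haematopoietic, 11.3 to 12.0 and 10.6 to 11.7 for 11 endothelial, and 2.47 to 2.95 and 3.86 to 5.28 for 12 skeletal muscle markers. Cldn3 (epithelial), Adgre1, Laptm5, Tyrobp, Hbb-bs and Gata1 (haematopoietic), Sox17 (endothelial) and Myf5, Myf6, Myl1 and Tnnt1 (muscle) were at 0 in every Cre-negative library. Neural markers were less scarce and summed to 161 to 168 CPM untreated and 167 to 182 with ethanol, mostly from Nes, Map2 and Sox2, with Olig2 and Snap25 at 0. Of 6 neural markers tested 1 was higher (16.7%), Tubb3 (log2 1.07 to 1.32 over the alternatives). Of 2 muscle markers tested 1 was higher (50%), Acta1 (log2 0.55 to 1.00). Of 5 endothelial markers tested 1 was lower (20%, range 0 to 1). No tested epithelial or haematopoietic marker passed. All mitochondrial genes in the table together held 1.69% and 1.62% of counts untreated and 1.95% and 1.90% with ethanol. A list of 13 of them, 11 tested, summed to 9168 and 8865 CPM untreated and 9637 and 8944 with ethanol. Of these 1 was higher (range 0 to 2) and 2 lower (range 0 to 5), with a median log2 change of -0.17. The part of mitochondrial transcripts in the results below was not tested.

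The comparison asks what differs between vehicle-treated and untreated cells where no gene is deleted. A gene was called changed when the adjusted p of edgeR's quasi-likelihood test, corrected over all 17609 genes tested, was under 0.05. By that rule 2196 genes were higher with ethanol (12.5% of those tested) and 2117 lower (12%), together 4313 (24.5%). Most changes were small: 3391 of the called genes (78.6%) changed by under 1.5-fold, 520 by 1.5- to 2-fold and 402 by at least 2-fold, of which 236 were higher (1.34% of genes tested) and 166 lower (0.943%). The 2-fold counts were 153 and 66 by DESeq2 and 157 and 69 with an average CPM of at least 1, and the lower one was 87 without library 2 and 104 without library 9. The median log2 change was 0.30 in size among called genes, and the 5th and 95th percentiles over all genes tested were -0.69 and 0.70. Without library 10 the lower genes numbered 1237, without library 2 1260 and without library 9 1340. The 2 ethanol libraries lay above both untreated ones for 30.6% of tested genes and below both for 30%, so groups that do not overlap are common here. Where a list's count moved by more than 1.5 times under another processing or without 1 library, the lowest and highest counts follow it as a range over the alternatives. List counts are to be read beside the 12.5% higher and 12% lower of all genes. The lists were chosen with earlier results of these data known, so such a comparison is a description and not a test. In bulk RNA, a change in the share of cells that express a gene and a change in RNA per cell cannot be told apart.

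Antiviral genes led the rise. Of the 12 named genes with the largest increase, 9 belong to families known to respond to interferon, 7 of them on the list of interferon-stimulated genes (Usp18, Xaf1, Ifi44, Oasl2, Isg15, Mx2 and Gbp3) and Irgm2 and Igtp, which are immunity-related GTPases. The spans of Irgm2 (chr11:58199618-58222782) and Igtp (chr11:58199556-58207591) overlap on the plus strand. Their reads may be shared, so they may not be 2 separate rises. The other 3 of the 12 were Malrd1, Cxcl15 and Postn. Malrd1, known for a part in bile acid control (chr2:15526479-16255555), was at 1.59 and 1.36 CPM untreated and 11.6 and 10.5 with ethanol (log2 2.91, SE 0.148, adjusted p = 5.03e-12). The chemokine gene Cxcl15 was at 0.969 and 0.896 CPM untreated and 6.52 and 6.12 with ethanol (log2 2.76, adjusted p = 1.46e-09). Postn, which codes for the matrix protein periostin (chr3:54361109-54391037), was at 33.6 and 31.3 CPM untreated and 164 and 160.3 with ethanol (log2 2.32, SE 0.0539, adjusted p = 1.84e-17). It rose 5.01-fold, and the libraries of each group lay close together.

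The genes that fell most were of mixed kinds. Phex, an endopeptidase of bone cells that controls phosphate (chrX:157162075-157415312), was at 4.98 and 5.38 CPM untreated and 1.51 and 1.06 with ethanol (log2 -2.02, SE 0.187, adjusted p = 5.35e-08). Prl2c2, the growth-induced hormone proliferin (chr13:12996125-13005383), was at 48.6 and 50.9 CPM untreated and 12.3 and 12.5 with ethanol (log2 -2.01, SE 0.0716, adjusted p = 2.91e-14); it has near-identical copies whose reads may be shared. The fitted ratio of ethanol to untreated was 0.246 for Phex and 0.249 for Prl2c2. Others were Aldh3a1, an aldehyde dehydrogenase (log2 -1.88, adjusted p = 2.96e-06), the troponin gene Tnnt2 (log2 -1.79, adjusted p = 4.46e-08), the matrix gene Tnxb (log2 -1.58, adjusted p = 5.24e-07) and the organic anion transporter gene Slco4a1 (log2 -1.45, adjusted p = 5.31e-09). Acan, for the cartilage proteoglycan aggrecan (log2 -1.24, adjusted p = 1.64e-07), Il18rap (log2 -1.23, adjusted p = 3.13e-07), Gna14 (log2 -1.22, adjusted p = 3.73e-06), Krt80 (log2 -1.13, adjusted p = 4.79e-06) and Nsdhl (log2 -1.16, adjusted p = 1.50e-11) were in the same range. Ces1g, a carboxylesterase gene at 1.01 and 0.789 CPM untreated and 0.465 and 0.239 with ethanol (log2 -1.35, adjusted p = 0.00757), passed too, but not without library 1 (adjusted p = 0.0644) or without library 10 (0.145).

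**Figure D1:**
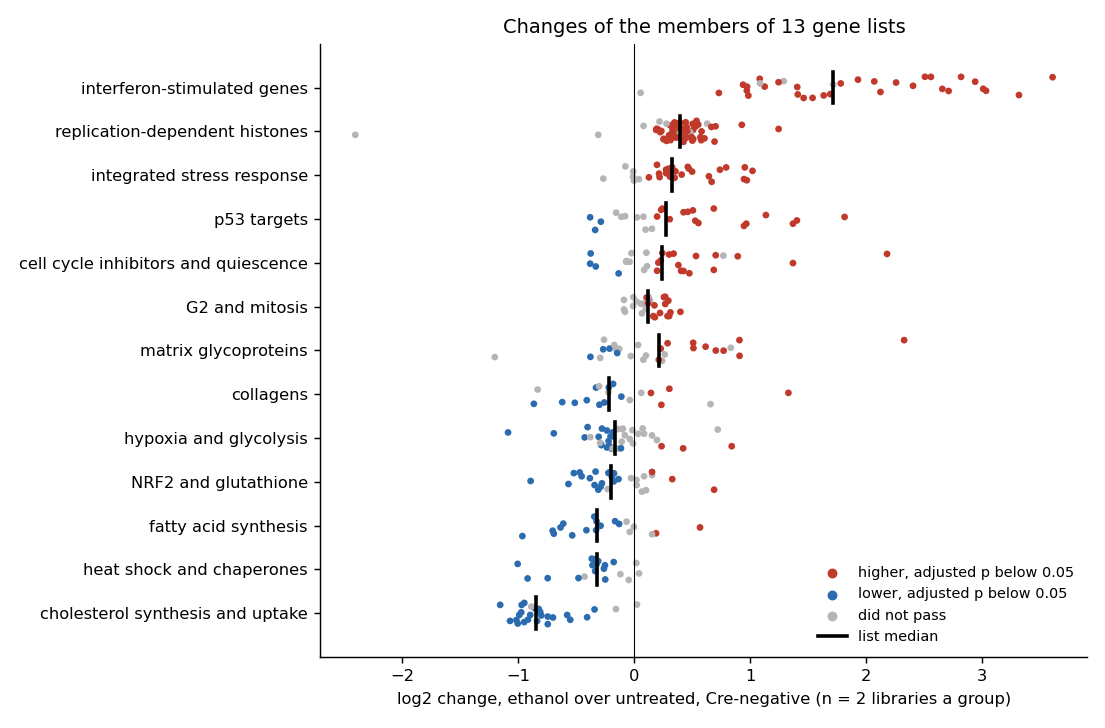
Log2 change with ethanol of every tested member of 13 gene lists in Cre-negative cells, 1 point a gene, red and blue where edgeR's adjusted p was under 0.05, grey where not, and a black bar at the list median. Interferon-stimulated genes lie at a median of 1.71 and cholesterol genes at -0.85, with replication-dependent histones at 0.39. Oas2 and Eln, at 0 in both untreated libraries, are counted in the medians but not drawn.

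Interferon-stimulated genes rose together, more than any other list by median. Of 38 on the list 35 were tested, 31 rose and 0 fell, against 12.5% of all genes higher, and 26 rose at least 2-fold. The median log2 change was 1.71, against 0.00 for all genes tested, and stayed at 1.71 with Oas2 at its lower bound. Their summed level was 351 and 348 CPM untreated and 662 and 718 with ethanol, higher in both ethanol libraries. Rsad2, Oasl1, Zbp1 and Ifit2 did not pass, and Oas3, Psmb8 and Psmb9 had too few counts to be tested. Because interferon signals through ISGF3, a complex that holds STAT2 and IRF9 and binds the ISRE motif, promoters were searched for the ISRE core (TTTC, any 2 bases, TTTC) on either strand, in the 250 bases before the start of the gene (RefSeq, GRCm38.p6). It was found in 11 of the 24 tested members that have a promoter entry (45.8%), and in 318 of 10409 tested genes with an entry (3.06%). The list is made of known interferon-stimulated genes, so this share describes the list and not the response to ethanol. The 5 stretches below are shown because they carry the match and belong to genes that rose, with matches, overlapping ones merged, in capitals. Whether members with a match rose more than those without one was not tested. A match on the opposite strand reads GAAA, any 2 bases, GAAA.

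Isg15: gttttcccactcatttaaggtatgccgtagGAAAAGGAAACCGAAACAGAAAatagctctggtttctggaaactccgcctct
Gbp3: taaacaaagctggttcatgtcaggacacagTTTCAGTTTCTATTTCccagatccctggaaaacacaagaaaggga
Ifit1: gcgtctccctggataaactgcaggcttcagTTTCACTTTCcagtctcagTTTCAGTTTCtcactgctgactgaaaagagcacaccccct
Bst2: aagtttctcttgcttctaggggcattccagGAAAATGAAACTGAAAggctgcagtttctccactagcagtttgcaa
Stat2: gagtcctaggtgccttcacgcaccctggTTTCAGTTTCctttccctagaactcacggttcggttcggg

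They lie at chr4:156200845-156200926 (minus strand), chr3:142559969-142560043 (plus), chr19:34640755-34640843 (plus), chr8:71537557-71537632 (minus) and chr10:128270248-128270315 (plus), and hold 3, 2, 2, 2 and 1 matches. A match is a description of the letters and not a test of binding. Isg15, a ubiquitin-like protein that is joined to other proteins, was at 0.485 and 0.358 CPM untreated and 2.83 and 3.56 with ethanol (log2 2.94, SE 0.314, adjusted p = 4.48e-07). The isopeptidase gene Usp18, whose product removes ISG15 and damps interferon receptor signals (chr6:121245906-121270917), was at 0.661 and 0.574 CPM untreated and 6.79 and 8.17 with ethanol (log2 3.60, SE 0.205, adjusted p = 3.15e-11). It rose 12.2-fold, and both ethanol libraries lay far above both untreated ones. Xaf1, which promotes apoptosis, was at 0.573 and 0.860 CPM untreated and 6.75 and 7.83 with ethanol (log2 3.31, SE 0.191, adjusted p = 3.70e-11). Ifi44 was at 0.441 and 0.717 CPM untreated and 5.08 and 4.68 with ethanol (log2 3.03, adjusted p = 1.23e-08). Oas2, of the 2',5'-oligoadenylate synthetases that activate RNase L, had 0 counts in both untreated libraries and 7 and 5 with ethanol, at least 3.68-fold higher against a floor of 3 counts over the group, and it did not pass without library 2 (adjusted p = 0.0514).

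The signalling chain and its sensors rose as well, with smaller log2 changes than Usp18, Xaf1, Ifi44 and Isg15. Irf7, which amplifies interferon transcription, was at 1.67 and 2.40 CPM untreated and 7.91 and 10.1 with ethanol (log2 2.12, SE 0.173, adjusted p = 8.18e-09). The ISGF3 subunit genes Irf9 (19.7 and 18.2 CPM untreated and 58.8 and 58.5 with ethanol; log2 1.63, adjusted p = 6.50e-13) and Stat2 (13.1 and 12.9 CPM untreated and 24.05 and 26.8 with ethanol; log2 0.97, adjusted p = 3.35e-08) rose. So did the cytosolic RNA sensor genes Ddx58, for RIG-I (34.3 and 33.8 CPM untreated and 79.98 and 80.97 with ethanol; log2 1.24, adjusted p = 3.61e-13), and Ifih1, for MDA5 (3.57 and 4.84 CPM untreated and 11.5 and 13.2 with ethanol; log2 1.54, adjusted p = 1.05e-08). Bst2, for tetherin, which holds budding virus at the cell surface, rose from 28.8 and 32.1 to 77.2 and 90.4 CPM (log2 1.46, adjusted p = 7.72e-10), and Ifit1, which binds foreign RNA ends, from 5.16 and 4.73 to 21.3 and 25.6 CPM (log2 2.26, adjusted p = 5.40e-12). Not all kin moved alike. Ifit3 rose less (log2 0.73, adjusted p = 1.80e-07) and Ifit2, which had the most counts of these genes, was at 138 and 132 CPM untreated and 141 and 139.7 with ethanol (log2 0.05, adjusted p = 0.433). Ifit3 and Ifit3b, and members of the Gbp and Oas families, are close copies, so their single values are uncertain.

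**Figure D2:**
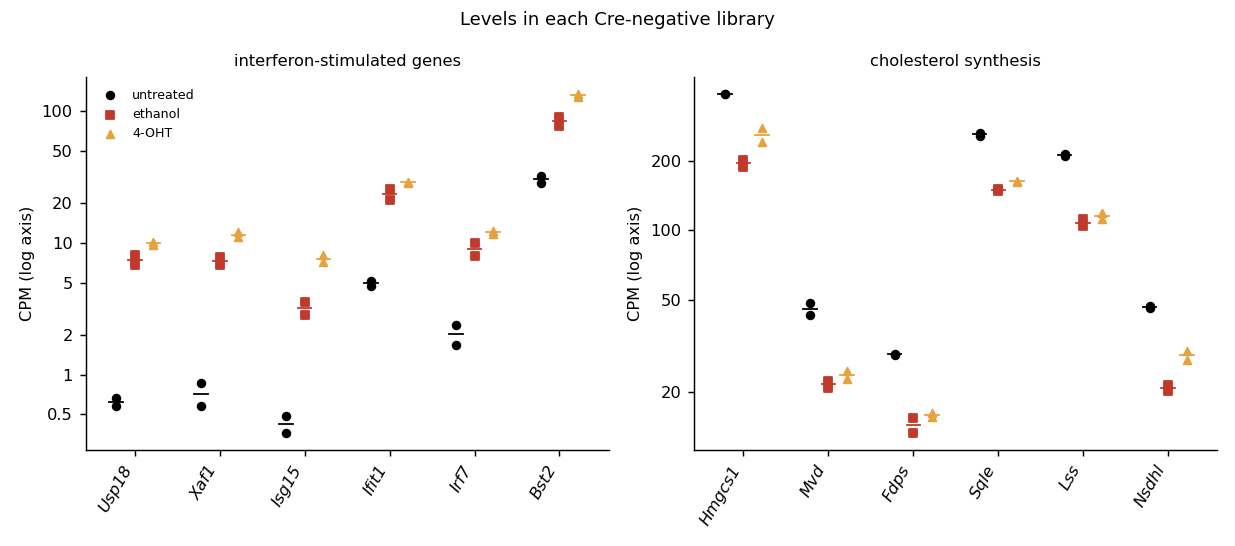
CPM on a log axis in each Cre-negative library for 6 interferon-stimulated genes and 6 cholesterol synthesis genes, with 2 libraries a group (black untreated, red ethanol, orange 4-OHT) and the group mean as a bar. Usp18 goes from below 1 CPM to 6.79 and 8.17 and Nsdhl from 47.1 and 46.3 to 20.3 and 21.5.

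Cholesterol synthesis genes fell together. Of 26 members, all tested, 23 fell and 0 rose, against 12% of all genes lower, and the median log2 change was -0.85. Their summed level went from 3919 and 3889 CPM to 2170 and 2269. The fall ran along the pathway. At its entry Hmgcs1, HMG-CoA synthase (chr13:119690379-119708260), was at 386 and 387 CPM untreated and 188 and 200.2 with ethanol (log2 -0.99, SE 0.0537, adjusted p = 1.40e-11). Its ethanol level was 0.503 times the untreated one. In the mevalonate steps Mvd was at 48.3 and 42.8 CPM untreated and 20.9 and 22.3 with ethanol (log2 -1.07, adjusted p = 1.95e-10) and Fdps at 29.3 and 29.04 CPM untreated and 13.3 and 15.5 with ethanol (log2 -1.02, adjusted p = 4.36e-09). Of the enzymes that make and fold squalene into sterol, Sqle was at 263 and 256 CPM untreated and 147 and 150.4 with ethanol (log2 -0.80, adjusted p = 1.04e-12) and Lss at 214 and 209.5 CPM untreated and 104 and 111 with ethanol (log2 -0.98, adjusted p = 3.61e-13). In the later steps, which trim lanosterol to cholesterol, Cyp51 (log2 -0.90, adjusted p = 3.61e-13), Hsd17b7 (log2 -1.01, adjusted p = 3.15e-12) and Nsdhl (47.1 and 46.3 CPM untreated, 20.3 and 21.5 with ethanol; log2 -1.16, SE 0.0629, adjusted p = 1.50e-11) fell too.

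Regulatory genes of the pathway fell too. Insig1, which holds SREBP in the endoplasmic reticulum (log2 -0.95, adjusted p = 2.33e-12) and Srebf2, for SREBP2 itself (log2 -0.41, adjusted p = 7.15e-06), were lower. Of the 3 members that did not pass, the values were small for Ggps1 (log2 0.02, adjusted p = 0.818), which makes a precursor for protein prenylation and not sterol, and Tm7sf2 (log2 -0.16, adjusted p = 0.518). The sterol response element core TCACNCCAC was found on either strand of the same 250 bases in 1 of 18 tested members with a promoter entry (5.56%), against 1.22% of tested genes. The ISRE core matched more of the same 18 members, 2 (11.1%), against 3.06% of tested genes. With so few matches neither share can be told from that of tested genes, and no difference was tested. The sterol element match was that of Hmgcs1, shown here because that gene is the entry of the pathway, at chr13:119690184-119690252 on the plus strand.

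Hmgcs1: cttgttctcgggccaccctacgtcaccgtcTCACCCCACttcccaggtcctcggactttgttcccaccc

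Fatty acid synthesis fell along with it. Of 19 members tested 13 fell and 2 rose (range 1 to 2), with a median of -0.33. The desaturase genes Scd2, at 823 and 832 CPM untreated and 417 and 431 with ethanol (log2 -0.97, SE 0.0497, adjusted p = 6.39e-12), and Scd1, at 167 and 160.0 CPM untreated and 103 and 98.7 with ethanol (log2 -0.69, adjusted p = 4.66e-11), which make oleic acid, fell most among them together with the elongase gene Elovl6 (log2 -0.70, adjusted p = 8.52e-12) and the acyl-CoA synthetase gene Acsl3 (log2 -0.64, adjusted p = 7.49e-09). Fasn, fatty acid synthase (log2 -0.41, adjusted p = 2.22e-06), and Acaca, acetyl-CoA carboxylase (log2 -0.33, adjusted p = 3.18e-06), fell by less, and Srebf1 did not pass (log2 0.00, adjusted p = 0.956). The genes that rose were Dgat2 and Gpam, of triglyceride assembly. Cholesterol efflux genes were few: 3 of 9 tested rose (range 1 to 3) and 1 fell (median 0.00), with the exporter Abca1 at 2.95 and 2.62 CPM untreated and 4.46 and 4.38 with ethanol (log2 0.67, adjusted p = 0.00916, largest adjusted p over the alternatives 0.101). Of 17 fatty acid oxidation and lipid droplet genes 2 rose (11.8%, range 1 to 3) and 3 fell (17.6%, range 1 to 3), near the 12.5% and 12% of all genes, with Cpt1a, which brings fatty acids into mitochondria, at 43.00 and 41.6 CPM untreated and 57.1 and 57.1 with ethanol (log2 0.43, adjusted p = 1.12e-06). Ppard passed (log2 -0.49, adjusted p = 0.0209) but was at -0.15 without library 2, which held its highest level, and also failed without library 9 or 10.

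Genes of the integrated stress response, in which ATF4 raises amino acid supply, rose. Of 30 tested 24 rose and 0 fell, with a median of 0.32. Atf4 itself was at 355 and 351 CPM untreated and 440.3 and 414 with ethanol (log2 0.27, adjusted p = 3.06e-05). Trib3, a pseudokinase that restrains AKT (chr2:152337422-152344032), was at 18.1 and 18.6 CPM untreated and 39.1 and 35.4 with ethanol (log2 1.02, SE 0.0745, adjusted p = 1.54e-09). Ddit3, for the factor CHOP, was at 27.2 and 28.1 CPM untreated and 54.8 and 52.2 with ethanol (log2 0.95, SE 0.0608, adjusted p = 1.83e-10). They rose 2.02- and 1.93-fold, and every ethanol library lay above every untreated one. Vldlr, a lipoprotein receptor (log2 0.97, adjusted p = 2.48e-10), Sesn2, a leucine sensor that restrains mTORC1 (log2 0.94, adjusted p = 5.56e-08), Cth, which makes cysteine (log2 0.79, adjusted p = 1.05e-08), Atf3 (log2 0.64, adjusted p = 5.30e-05) and asparagine synthetase, Asns (log2 0.33, adjusted p = 4.75e-06), rose as well. In the unfolded protein response, the arm of the endoplasmic reticulum, 3 of 23 rose (13.04%, range 2 to 4) and 3 fell (13.04%), near the shares of all genes, with Herpud1 higher (log2 0.31, adjusted p = 2.63e-05) and the chaperone genes Calr (log2 -0.21, adjusted p = 0.000551) and Hsp90b1 (log2 -0.21, adjusted p = 0.000191) lower.

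Many growth-restraining genes rose. Txnip, which binds thioredoxin and limits glucose uptake (chr3:96557957-96561883), was at 9.87 and 11.6 CPM untreated and 48.6 and 49.2 with ethanol (log2 2.18, SE 0.0795, adjusted p = 3.10e-14). Its paralog Arrdc4 was at 1.98 and 1.22 CPM untreated and 2.72 and 3.08 with ethanol (log2 0.89, adjusted p = 0.00458), but did not pass without library 2 or without library 10. Cdkn1a, for the cyclin-dependent kinase inhibitor p21 (chr17:29090976-29100727), was at 5.16 and 5.13 CPM untreated and 13.7 and 12.9 with ethanol (log2 1.37, SE 0.119, adjusted p = 2.04e-08). Trp53inp1, a p53 target of autophagy and cell death, was at 17.01 and 15.1 CPM untreated and 41.6 and 42.9 with ethanol (log2 1.40, SE 0.0827, adjusted p = 5.45e-11). Of 28 cell cycle inhibitors and quiescence genes tested 16 rose and 4 fell (median 0.23), and of 26 p53 targets 16 rose and 3 fell (median 0.27). Mdm2, the ligase that turns p53 over, was among them (log2 0.30, adjusted p = 2.65e-05), and Pmaip1 rose from 0.176 and 0.179 to 0.659 and 0.615 CPM (log2 1.81, adjusted p = 0.00330). The death genes Bax (log2 -0.11, adjusted p = 0.132) and Fas (log2 -0.16, adjusted p = 0.209) did not pass. Of 27 G2 and mitosis genes 15 rose (range 10 to 16) and 0 fell (range 0 to 1), with a median of 0.12, including the kinase genes Aurkb, at 84.5 and 85.9 CPM untreated and 112 and 113 with ethanol (log2 0.40, adjusted p = 4.01e-07), and Aurka (log2 0.30, adjusted p = 1.80e-05), with Top2a at log2 0.29, adjusted p = 2.32e-06. Mki67, a marker of cycling cells, was at 847 and 914 CPM untreated and 930.4 and 852 with ethanol (log2 0.02, adjusted p = 0.852). Of 32 S phase genes 10 rose (range 7 to 12) and 4 fell (range 0 to 4, median 0.08), and cyclin D1, Ccnd1, fell from 267 and 264 to 206 and 213 CPM (log2 -0.34, adjusted p = 1.25e-06).

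**Figure D3:**
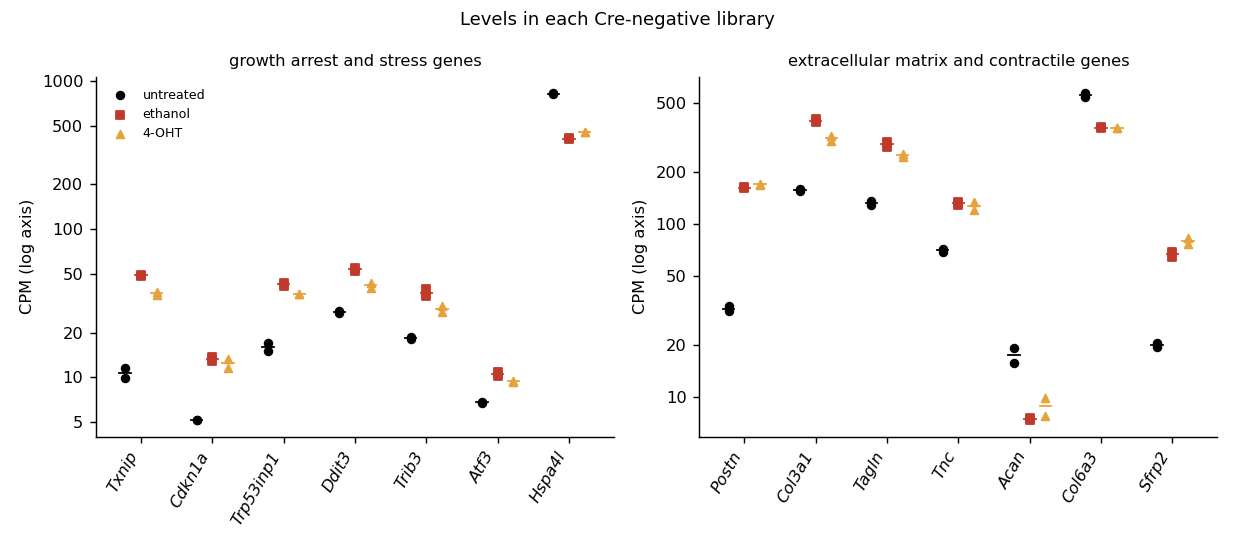
CPM on a log axis in each Cre-negative library for 7 growth arrest and stress genes and 7 extracellular matrix, contractile and secreted genes (2 libraries a group, black untreated, red ethanol, orange 4-OHT, bar at the mean). Txnip goes from 9.87 and 11.6 to 48.6 and 49.2 CPM and Hspa4l from 823 and 817 to 413 and 403.

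Replication-dependent histone genes rose almost as a block. Their RNAs end in a stem-loop in place of a poly(A) tail and are kept by the ribosome depletion used here. Of 61 tested 53 rose and 0 fell, with a median of 0.39, and the summed level went from 9290 and 9448 CPM to 12364 and 11690. Hist1h1a, a linker histone, was at 32.8 and 29.97 CPM untreated and 51.7 and 50.1 with ethanol (log2 0.70, SE 0.0569, adjusted p = 7.95e-09), Hist1h3b at 224 and 218 CPM untreated and 336 and 321 with ethanol (log2 0.57, adjusted p = 2.05e-10) and Hist1h4c at 323 and 326 CPM untreated and 419 and 417 with ethanol (log2 0.36, adjusted p = 4.96e-07). H2afx, whose product is marked at DNA breaks and whose gene also gives a polyadenylated RNA, was at 132 and 132 CPM untreated and 213 and 214 with ethanol (log2 0.69, adjusted p = 1.96e-10). The members of each histone class are near-identical in coding sequence, so single values are uncertain. Members that passed were higher in each of the classes H1, H2A, H2B, H3 and H4. Among other abundant RNAs, 6 of 13 snoRNA host genes rose and 0 fell, with Snhg12 at 22.9 and 21.6 CPM untreated and 34.2 and 34.8 with ethanol (log2 0.64, adjusted p = 2.30e-06). Cytosolic ribosomal protein genes did not share this: 3 of 77 rose (range 0 to 3) and 4 fell (range 1 to 6), with a median of -0.02.

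Chaperone genes fell. Of 19 heat shock and chaperone genes tested 14 fell and 0 rose, with a median of -0.33. Hspa4l, an HSP110-type exchange factor (chr3:40744495-40796103), was at 823 and 817 CPM untreated and 413 and 403 with ethanol (log2 -1.01, SE 0.0345, adjusted p = 1.72e-14). Its relative Hsph1 was at 267 and 278 CPM untreated and 163 and 162 with ethanol (log2 -0.75, adjusted p = 3.15e-12) and the inducible HSP70 gene Hspa1b at 34.5 and 30.8 CPM untreated and 17.8 and 16.7 with ethanol (log2 -0.92, adjusted p = 7.76e-09). The constitutive Hspa8 (log2 -0.25, adjusted p = 1.22e-05), Hsp90aa1 (log2 -0.34, adjusted p = 2.19e-06) and the mitochondrial pair Hspd1 (log2 -0.25, adjusted p = 7.39e-05) and Hspe1 (log2 -0.18, adjusted p = 0.0157) fell by less. Hspe1 did not pass without library 1 or without library 9 (-0.08 and -0.14). Hsf1, the factor that drives these genes, did not pass (log2 -0.12, adjusted p = 0.209). The heat shock element (GAA, any 2 bases, TTC, any 2 bases, GAA), searched as above, was found in 2 of 14 tested members with an entry (14.3%), against 0.452% of tested genes. They are Hspd1 and Hspe1, which face away from a single promoter, so the matches are the same letters and 1 stretch is counted for both genes. No other member with an entry had a match, and these 2 fell by less than Hspa4l, Hsph1 and Hspa1b. The element also matched 1 of 24 interferon-stimulated genes with an entry (4.17%). The stretch that Hspd1 and Hspe1 share is shown on the strand of Hspe1, at chr1:55088029-55088106.

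Hspe1: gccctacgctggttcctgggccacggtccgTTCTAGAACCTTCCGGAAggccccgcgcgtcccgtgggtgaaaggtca

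Antioxidant genes fell more often than they rose. Of 28 NRF2 and glutathione genes tested 17 fell and 3 rose (median -0.20). Nqo1, a quinone reductase, was at 53.3 and 50.8 CPM untreated and 27.8 and 28.1 with ethanol (log2 -0.89, SE 0.0482, adjusted p = 1.37e-11), and Pgd, of the pentose phosphate route, at 127 and 128 CPM untreated and 86.96 and 90.8 with ethanol (log2 -0.52, adjusted p = 4.92e-09). Slc7a11, the cystine importer that ATF4 also drives, rose from 15.8 and 15.8 to 27.2 and 23.8 CPM (log2 0.69, adjusted p = 4.16e-07), while Hmox1 (log2 0.06, adjusted p = 0.397) and Txnrd1 (log2 0.02, adjusted p = 0.784) did not pass. Of 38 hypoxia and glycolysis genes 17 fell (range 11 to 17), 3 rose (range 1 to 3) and 18 did not pass (median -0.17), with Aldoa at 473 and 460.3 CPM untreated and 339 and 354 with ethanol (log2 -0.43, adjusted p = 3.66e-08), Pkm (log2 -0.40, adjusted p = 1.84e-07) and Ldha (log2 -0.29, adjusted p = 1.85e-05) lower and Vegfa at -0.04 (adjusted p = 0.622). Of 15 genes of ethanol and aldehyde metabolism tested 2 rose (13.3%, range 1 to 3) and 4 fell (26.7%), against 12.5% and 12% of all genes (median -0.23). The main mitochondrial acetaldehyde oxidase gene Aldh2 was at 163 and 151 CPM untreated and 131 and 138 with ethanol (log2 -0.23, adjusted p = 0.00157, adjusted p = 0.0534 without library 1) and catalase, Cat, at 78.7 and 70.5 CPM untreated and 60.04 and 60.4 with ethanol (log2 -0.31, adjusted p = 0.000190). Aldh3a1 lay at 2.38 and 2.58 CPM untreated and 0.698 and 0.650 with ethanol, a low level in every Cre-negative library. Cyp2e1 and Aldh1a2 were at 0 counts in all 6 Cre-negative libraries and Adh1 reached at most 2.

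Extracellular matrix genes moved in both directions. Of 20 collagen genes tested 4 rose (range 2 to 4) and 10 fell (median -0.22). Of 29 matrix glycoproteins 11 rose and 4 fell (range 1 to 6, median 0.21, or 0.10 with Eln at its bound of 3 counts), and of 21 proteases and inhibitors 9 rose and 3 fell (range 1 to 3, median 0.22). Col3a1, a fibrillar collagen of loose tissue (chr1:45311538-45349706), was at 160.2 and 156 CPM untreated and 402 and 391 with ethanol (log2 1.33, SE 0.0490, adjusted p = 3.32e-14). Col6a3 was at 539 and 567 CPM untreated and 357 and 361 with ethanol (log2 -0.62, adjusted p = 5.88e-10) and Col11a1 at 57.02 and 53.1 CPM untreated and 38.4 and 38.6 with ethanol (log2 -0.51, adjusted p = 2.96e-06), so collagen types did not move together. Among glycoproteins Tnc, for tenascin C, rose from 68.6 and 72.02 to 135 and 129 CPM (log2 0.91, adjusted p = 7.81e-11), Fbn2 (log2 0.91, adjusted p = 2.64e-07) and Ogn (log2 0.77, adjusted p = 2.51e-09) rose too, and fibronectin, Fn1, was at 1306 and 1583 CPM untreated and 1627 and 1421 with ethanol (log2 0.08, adjusted p = 0.571). Contractile genes of myofibroblasts had 5 of 21 higher (23.8%) and 2 lower (9.52%), against 12.5% and 12% of all genes (median 0.09). Tagln was at 129 and 135 CPM untreated and 298 and 278 with ethanol (log2 1.13, adjusted p = 3.61e-13) and Acta2, smooth muscle actin, at 725 and 724 CPM untreated and 1151 and 1077 with ethanol (log2 0.62, adjusted p = 7.82e-11), while Tpm1 fell from 1668 and 1639 to 1228 and 1243 CPM (log2 -0.42, adjusted p = 1.32e-08). The collagen receptor gene Itga1 rose from 11.7 and 11.9 to 26.5 and 22.9 CPM (log2 1.06, adjusted p = 5.72e-09). Of 12 adipocyte and cartilage markers 9 were tested, 5 of them higher (range 2 to 5) and 4 lower (range 2 to 4). Col10a1 rose from 22.6 and 23.7 to 40.8 and 40.3 CPM (log2 0.81, adjusted p = 1.72e-08) and Cebpa rose (log2 0.71, adjusted p = 0.00180), while Acan and Fabp4, at 48.2 and 48.6 CPM untreated and 37.4 and 40.3 with ethanol (log2 -0.32, adjusted p = 0.000431), fell.

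In the Wnt pathway 9 of 24 rose (37.5%) and 2 fell (range 1 to 3, median 0.11). Sfrp2, a secreted Wnt modulator, was at 19.6 and 20.6 CPM untreated and 64.1 and 69.2 with ethanol (log2 1.73, SE 0.0630, adjusted p = 3.10e-14), and the Wnt co-receptor gene Lgr5 rose from 0.308 and 0.466 to 1.28 and 1.68 CPM (log2 1.90, adjusted p = 0.000143). Of 22 inflammatory secretory genes tested 4 rose (18.2%, range 2 to 4) and 6 fell (27.3%), against 12.5% and 12% of all genes (median -0.01). The prostaglandin synthase gene Ptgs2 was at 324 and 333 CPM untreated and 236 and 182 with ethanol (log2 -0.66, adjusted p = 4.88e-07) and the chemokine gene Ccl7 at 32.5 and 30.1 CPM untreated and 20.8 and 15.8 with ethanol (log2 -0.78, adjusted p = 8.98e-07), whereas Cxcl10, a chemokine that interferon also raises, rose from 2.20 and 1.33 to 3.61 and 3.90 CPM (log2 1.12, adjusted p = 0.000301). In the retinoid pathway Dhrs3, which reduces retinaldehyde, rose from 17.8 and 16.5 to 32.7 and 31.97 CPM (log2 0.92, adjusted p = 2.24e-09). Among TGF-beta targets 8 of 23 rose (34.8%) and 2 fell (range 1 to 3, median 0.10), with the collagen cross-linker gene Lox at 584 and 610.1 CPM untreated and 869 and 803 with ethanol (log2 0.48, adjusted p = 3.46e-08). YAP and TAZ targets had 6 higher (27.3%, range 3 to 7) and 6 lower (27.3%, range 2 to 6) of 22 (median 0.03). Their factor gene Tead1 passed (log2 -0.50, adjusted p = 0.00333) but was at -0.24 without library 2, and also failed without library 10 and by DESeq2. Immediate-early genes had 5 higher (20%, range 2 to 6) and 4 lower (16%, range 3 to 5) of 25 (median 0.06). Fos was at 1.41 and 1.33 CPM untreated and 3.57 and 1.88 with ethanol (log2 0.97, adjusted p = 0.00841). It was at log2 0.47 without library 9 and failed there, and also failed without library 2.

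The Cre-negative 4-OHT libraries show where cells stood that had the drug, also for 5 days. 4-OHT binds oestrogen receptors, and no Cre was there for it to activate. Against ethanol, 587 genes were higher with 4-OHT (3.33%) and 467 lower (2.65%). Both comparisons use the ethanol libraries, so their values are given side by side and not as a relation. The higher count was 929 in a fit of those libraries alone, and 141, 336, 210 and 153 without library 5, 6, 9 or 10. The lower count was 160, 273, 232 and 191 without them, so each of the 4 libraries moves it. Of 402 genes called and changed at least 2-fold between ethanol and untreated, 52 passed between 4-OHT and ethanol. Of all genes tested 5.99% passed there. The 402 were picked with the same ethanol libraries, so the 2 shares cannot be compared. Postn was at 168 and 171 CPM with 4-OHT (log2 against ethanol 0.06, adjusted p = 0.488) and Cdkn1a at 13.3 and 11.6 (-0.10, adjusted p = 0.641). Interferon-stimulated genes were higher still in 13 of 35 cases and lower in 0. Isg15 was at 8.08 and 7.13 CPM with 4-OHT (1.23, adjusted p = 0.000131) and Bst2 at 135 and 129 (0.65, adjusted p = 0.000112). Of 26 cholesterol genes 11 were higher with 4-OHT than with ethanol and 0 lower, with Hmgcs1 at 276 and 241 CPM (0.41, adjusted p = 8.27e-05), between the ethanol and untreated levels. Scd2 lay between them too, at 692 and 631 CPM (0.64, adjusted p = 9.81e-08). Of 61 histone genes 27 were lower with 4-OHT than with ethanol and 0 higher, and of 30 integrated stress genes 9 were lower and 1 higher.

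The same contrast was made in Cre-positive cells, in separate libraries. There 1428 genes were higher with ethanol (8.11%) and 1204 lower (6.84%). Of the 4313 genes called in Cre-negative cells 864 were called in the same direction in Cre-positive cells, 20.03% of the Cre-negative and 32.8% of the Cre-positive calls, and 263 in the opposite direction. Over all tested genes Pearson's r of the log2 changes was 0.143 and Spearman's rho 0.114, a description in which genes are not independent. The difference between the responses, tested as an interaction, passed for 1406 genes with a higher value in Cre-negative cells (7.98%) and 1465 with a lower one (8.32%). By DESeq2 the first count was 815, and without library 2, 4 or 10 it was 913, 922 or 934. The second was 884, 961 and 858 without library 2, 7 or 10. Genotype and the origin of the cells cannot be told apart here.

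Interferon-stimulated genes rose in both lines, many of them by more in Cre-negative cells. In Cre-positive cells 21 of 35 rose and 0 fell (median 0.71), and the difference passed for 21, all with the larger rise in Cre-negative cells. Usp18 went from 1.18 and 0.934 to 3.72 and 2.88 CPM in Cre-positive cells (log2 1.62; difference 1.99, SE 0.352, adjusted p = 0.000553). Cholesterol genes fell in both: 18 of 26 fell in Cre-positive cells (median -0.26), and the difference passed for 22, all with the larger fall in Cre-negative cells. Hmgcs1 went from 519 and 529 to 440.0 and 478 CPM there (difference -0.80, SE 0.0745, adjusted p = 2.76e-07). Hsd17b7 did not pass in Cre-positive cells (log2 -0.03; difference -0.98, SE 0.0652, adjusted p = 3.65e-09). The antioxidant gene Nqo1 is a case where no difference passed: it fell from 214 and 212 to 124 and 121 CPM in Cre-positive cells (log2 -0.80; difference -0.10, SE 0.0611, adjusted p = 0.328).

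Histone and stress genes parted between the lines. Of 61 histone genes 1 rose and 6 fell in Cre-positive cells (median -0.07), and the difference passed for 50, all with the higher value in Cre-negative cells. Hist1h3b was at 178 and 179 CPM untreated and 189 and 185 with ethanol there (difference 0.50, SE 0.0528, adjusted p = 1.56e-06). Of 30 integrated stress genes 4 rose and 6 fell in Cre-positive cells (median -0.04), and the difference passed for 22, 21 of them with the higher value in Cre-negative cells. Trib3 was at 12.6 and 12.7 CPM untreated and 10.9 and 10.9 with ethanol in Cre-positive cells (difference 1.23, SE 0.120, adjusted p = 5.97e-07). Slc7a11 fell in Cre-positive cells (log2 -0.50; difference 1.18, SE 0.0973, adjusted p = 5.31e-08). Postn was at 669 and 695 CPM in untreated Cre-positive cells and 775 and 753 with ethanol (log2 0.16; difference 2.16, SE 0.0692, adjusted p = 1.32e-14), so the ethanol level of Cre-negative cells stayed under the untreated level of the other line.

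**Figure D4:**
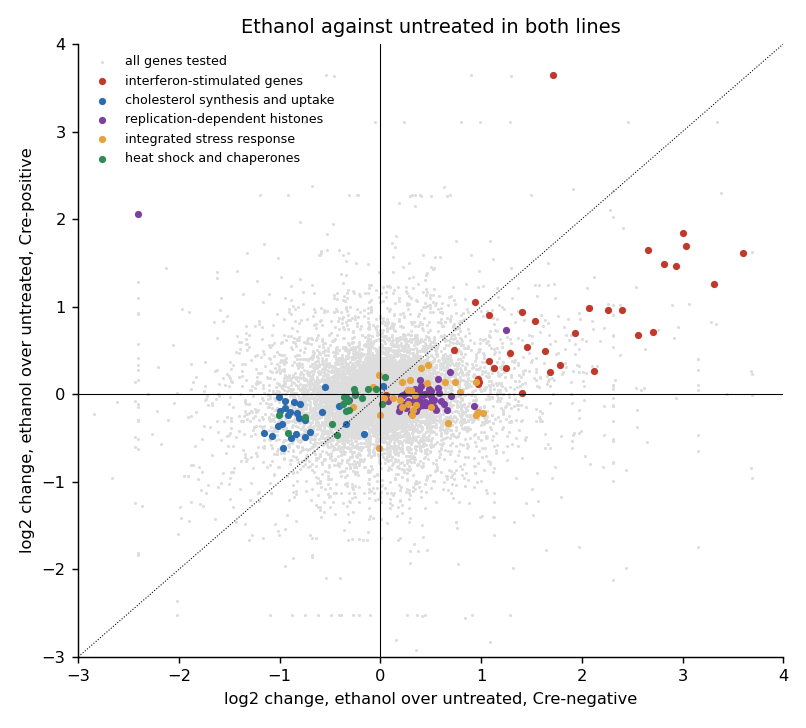
Log2 change with ethanol in Cre-negative cells (x axis) against Cre-positive cells (y axis) for all tested genes in grey, with members of 5 lists coloured and a dotted line of equal change. Interferon-stimulated genes lie mostly to the right of 0 and below the dotted line, cholesterol genes to the left of 0 and above it, and histone genes to the right near 0 on the y axis. Of 17609 genes 54 lie outside the axes, and Oas2 is not coloured.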

How the data were processed

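RNA of 12 libraries (6 groups of 2) was measured by ribosome-depleted, paired-end RNA-seq in 1 run, per the labels' protocols. The authors deposited expected counts for 47517 gene symbols, all of them whole numbers. GRCm38, edgeR, RSEM 1.2.30, STAR 2.5.2a and cutadapt 1.11 are listed in the submitters' processing notes. The sources used here do not give annotation, strand setting or rounding, so reads of overlapping and antisense genes may be shared.

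Genes were kept by filterByExpr (17609) and scaled by TMM, and 1 quasi-likelihood model over all 12 libraries, with a common estimate of spread, gave every test (edgeR 4.0.16, R 4.3.3; 2-sided F tests, Benjamini-Hochberg adjustment over all genes tested, threshold 0.05, SE from the F statistic). The biological coefficient of variation was 3.44%. CPM use TMM-scaled totals. Replicates differed by more than sampling noise (chi-square per degree of freedom 2.37 to 4.60). The code was tested on simulated data. Alternatives were DESeq2 1.42.0, limma-voom (limma 3.58.1), RLE factors, other filters, only the libraries compared and leaving out each library.

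The members and the 47 gene lists were chosen with earlier results of these data known. The rule for named genes took the targets, up to 12 genes per direction with the largest change among those past the threshold whose groups do not overlap, with mean log2 CPM 1 or more (predicted genes left out), up to 4 members per list, and up to 6 per direction that also passed the difference between lines, 192 in all. A further 57 genes were named after their values were seen, to show steps of a pathway (a few of all these are not reported here), as were markers and members that complete a list's count. The 4 motifs and the 250-base window were also chosen after the list results were seen, and no others were tried. Each motif was counted in each of the 4 lists that had a motif of their own. The CARE motif TGATGNAAT matched 1 of 26 integrated stress genes with an entry, against 0.490% of tested genes. Coordinates are GRCm38 from GENCODE M21, and promoters are from RefSeq (GRCm38.p6, 10409 of the tested genes).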

Additional observations from a re-analysis of the deposited data

Results flagged for a closer look

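The genes here are those named for a difference in the ethanol response between the lines, 6 in each direction, each past the test in Cre-negative cells and past the interaction test with all libraries in the fit. They are part of a wider set, as 104 of 192 named genes passed the interaction test. The account was limited to these 12 after that count was known. Of all 17609 genes tested, 16.3% passed it. These 12 were named for passing it, and many others for their change in Cre-negative cells, which is part of the difference tested. The count of 104 was therefore raised by how genes were named, and cannot be compared with the share of all genes. Values are log2 differences, Cre-negative minus Cre-positive response, by edgeR's quasi-likelihood test.

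The first 6 responded more positively in Cre-negative cells. Slc1a6, a glutamate transporter gene, rose from 3.26 and 2.65 to 9.77 and 8.65 CPM in Cre-negative cells and was at 0.315 and 0.442 CPM untreated and 0.111 and 0.101 with ethanol in Cre-positive cells (difference 3.42, SE 0.710, adjusted p = 0.00221). Pcp4l1 rose from 6.12 and 7.03 to 15.9 and 16.9 CPM, and was at 0.197 and 0.0983 CPM untreated and 0.0368 and 0.0335 with ethanol in Cre-positive cells (difference 3.30, SE 0.897, adjusted p = 0.0149). Its difference did not pass without library 4 or without library 7 (largest adjusted p = 0.255). In Cre-positive cells Pcp4l1 rests on 5 and 2 counts untreated and 1 and 1 with ethanol, and Slc1a6 on 8 and 9 and on 3 and 3, so the size of both differences is uncertain. Irgm2, an interferon-inducible GTPase gene, rose from 0.352 and 0.502 to 4.00 and 4.82 CPM against 1.49 and 2.06 to 2.95 and 3.15 in Cre-positive cells (difference 2.54, SE 0.344, adjusted p = 3.29e-05). It overlaps Igtp on the same strand, so its reads may be shared. Lgr5 rose to 1.28 and 1.68 CPM in Cre-negative cells and fell from 4.09 and 4.57 to 2.51 and 3.12 in Cre-positive ones (difference 2.51, SE 0.365, adjusted p = 7.06e-05), and Inhbb, an activin subunit gene, did likewise, with 0.308 and 0.538 to 1.24 and 1.47 against 6.84 and 6.88 to 4.57 and 4.42 CPM (difference 2.25, SE 0.312, adjusted p = 4.22e-05). Malrd1 rose in both lines, to 11.6 and 10.5 and to 3.83 and 4.53 CPM (difference 2.27, SE 0.230, adjusted p = 9.02e-07).

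The other 6 responded more negatively. Phex was at 1.22 and 0.983 CPM in untreated Cre-positive cells and 1.14 and 1.106 with ethanol (difference -2.04, SE 0.330, adjusted p = 0.000224). Shank2, a synaptic scaffold gene, fell from 19.7 and 23.7 to 10.01 and 10.1 CPM, and was at 13.6 and 11.2 CPM untreated and 11.02 and 13.8 with ethanol in Cre-positive cells (difference -1.113, SE 0.163, adjusted p = 7.95e-05). Hmgn5, for a nucleosome-binding protein, fell from 6.21 and 5.81 to 2.79 and 3.15 CPM (difference -1.30, SE 0.267, adjusted p = 0.00202), and S100a11, a calcium-binding protein gene, from 9.61 and 11.1 to 5.59 and 6.09 CPM (difference -1.16, SE 0.227, adjusted p = 0.00134). Pgbd5, a domesticated transposase gene, fell slightly in Cre-negative cells, from 43.4 and 44.99 to 36.4 and 37.8 CPM (not past the test without library 2 or 9), and rose from 2.16 and 1.28 to 3.28 and 3.29 CPM in Cre-positive ones (difference -1.15, SE 0.195, adjusted p = 0.000375). Chst1, a sulfotransferase gene, fell from 4.93 and 5.16 to 3.96 and 3.28 CPM in Cre-negative cells (difference -1.19, SE 0.360, adjusted p = 0.0276). The fall there was log2 -0.61 to -0.35 over the alternatives, so part of the difference comes from a rise with ethanol in Cre-positive cells. That fall passed in 5 of 10 alternatives, and not by DESeq2 or without library 1, 2, 9 or 10, and its difference did not pass by DESeq2 or without library 2, 4, 8 or 10 (largest adjusted p = 0.135).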

How the results depend on the processing

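Leaving out 1 library gave 1499 (without library 2) to 1761 (without library 1) higher and 1237 (without library 10) to 1523 (without library 1) lower genes for ethanol against untreated, 913 (without library 2) to 1520 (without library 3) and 858 (without library 10) to 1557 (without library 3) for the difference between the lines, and 141 (without library 5) to 336 (without library 6) and 160 (without library 5) to 273 (without library 6) for 4-OHT against ethanol. With 1 library left in a group, its spread is assumed to be that of the other groups. DESeq2 gave 815 genes with a higher response in Cre-negative cells, and the fit of only the libraries compared gave 929 higher with 4-OHT. All other counts of calls in these 3 comparisons, under DESeq2, RLE, limma-voom, no filter, an average CPM of at least 1 or only the libraries compared, were within 1.5 times those reported. Genes changed at least 2-fold numbered 153 higher and 66 lower with DESeq2 and 157 and 69 with an average CPM of at least 1, and the lower ones 87 without library 2 and 104 without library 9. Of 232 named genes that passed, 171 kept direction and call under all alternatives run, 61 lost the call in at least 1 and 0 reversed. Over the alternatives 27 to 32 interferon-stimulated genes were higher, 23 cholesterol genes lower in each, 49 to 54 histone and 22 to 24 integrated stress genes higher, and 12 to 14 chaperone genes lower. Over all lists and alternatives 118 counts moved by more than 1.5 times and 822 did not, and the ranges for those reported stand beside them. The test calls 5.52% of genes under 1 CPM and 45.9% of those at 100 CPM or more, so small changes in scarce RNAs were not detectable at this depth. No paired analysis was possible because the groups share no replicate numbers.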

Other observations

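Classes of genes differed in how often they were called. Call rates also differ by level, from 5.52% of genes under 1 CPM to 45.9% at 100 CPM or more. The classes were not matched for level, so class and level cannot be told apart in these shares. By GENCODE M21 class, 16.2% of 12444 protein-coding genes were higher and 13.6% lower. Of 656 TEC genes, a class of mostly unspliced transcripts that await experimental support, 5 were higher (0.762%) and 90 lower (13.7%), with a median log2 change of -0.30. Of 2003 pseudogenes 2.60% were higher and 8.79% lower (median -0.07), and of 1410 long non-coding genes 3.12% and 5.32% (median -0.02). The nuclear RNA Neat1, which builds paraspeckles, was at 229 and 245 CPM untreated and 102 and 134 with ethanol (log2 -1.01, SE 0.113, adjusted p = 8.41e-07) and at 114 and 125 CPM with 4-OHT. Malat1, another nuclear RNA, was at 2789.8 and 2928 CPM untreated and 2457 and 2576 with ethanol (log2 -0.18, adjusted p = 0.0251, and past the threshold in 5 of 10 alternatives). In Cre-positive cells Neat1 went from 355 and 425 to 266 and 332 CPM (log2 -0.38, adjusted p = 0.0186). These classes and genes were looked at after the results were seen, and the share of unspliced RNA was not measured.

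Among RNAs tied to the study's own subject, 2 of 17 SOSS and Integrator genes were higher (11.8%, range 1 to 2 over the alternatives) and 3 lower (17.6%, range 1 to 3), near the 12.5% and 12% of all genes. Ints8 was at 73.8 and 73.99 CPM untreated and 57.9 and 62.03 with ethanol (log2 -0.30, adjusted p = 9.93e-05) and the SOSS subunit gene Inip at 36.1 and 35.4 CPM untreated and 43.2 and 40.7 with ethanol (log2 0.23, adjusted p = 0.00404). Ints9 passed (log2 -0.49, adjusted p = 0.0155) but did so in only 6 of 10 alternatives. Of 16 snRNAs and related RNAs tested 1 was higher (6.25%) and 1 lower (6.25%), each 1 to 2 over the alternatives. These shares are under those of all genes. The lower one was the U3 gene Rnu3a, at 643 and 609.9 CPM untreated and 472 and 490.1 with ethanol (log2 -0.38, SE 0.0597, adjusted p = 5.90e-05).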
